A study of Homo sapiens with 19 samples.

Results

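The 9 transcripts described here code for integrin subunits, and 1 of them is ITGA2. They were chosen by name, with 1 Ensembl transcript for each of 9 genes, and from their estimated reads over the 6 groups of the study, with earlier results of these data known. All 9 were listed among the 175775 transcripts measured in each of 17 RNA libraries. The cells were MDA-MB-231, an established human line of triple-negative breast cancer, and all 17 libraries came from this 1 line. Every culture received siRNA at 30 nM with a lipid reagent, the controls included. In the siRNA experiment the groups were NC (control siRNA, 4 libraries), siHMGN5 (siRNA against HMGN5, 2 libraries) and siSTAT3 (siRNA against STAT3, 2 libraries). In the lentiviral experiment the groups were NC_Vec (control siRNA with the control vector, 3 libraries), siSTAT3_Vec (STAT3 siRNA with the control vector, 3 libraries) and siSTAT3_HMGN5 (STAT3 siRNA with lentiviral HMGN5, 3 libraries). STAT3 is a transcription factor activated by cytokine receptors, and HMGN5 binds nucleosomes. The promoter of the lentiviral HMGN5, the siRNA sequences, the time of harvest and whether libraries of a group came from separate cultures were not stated in the labels. The levels of STAT3 and HMGN5 and the marker genes of the line were not analysed here, because the tables at hand pair no transcript with a gene. The study asked how the transcriptome of these cells changes on loss of either protein, and how lentiviral HMGN5 alters it in cells given STAT3 siRNA.

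Integrins are receptors of the cell surface made of 1 alpha and 1 beta subunit, which bind the extracellular matrix outside the cell and the actin cytoskeleton inside it. The alpha subunit largely sets the ligand. ITGA2 pairs with ITGB1 to bind collagen, ITGA3 and ITGA6 pair with ITGB1 to bind laminin, and ITGA5 pairs with ITGB1 to bind fibronectin. ITGAV pairs with ITGB1, ITGB3 or ITGB5 and binds vitronectin and other ligands with an RGD motif, and ITGB4 pairs with ITGA6 at hemidesmosomes of epithelial cells. In carcinoma cells integrins are known for their part in adhesion, migration and survival signalling.

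The genes lie, in RefSeq coordinates of GRCh38.p14, at chr5:52989352-53094779 (ITGA2), chr17:50056110-50090481 (ITGA3), chr12:54395261-54419266 (ITGA5), chr2:172427336-172506459 (ITGA6), chr2:186590056-186680901 (ITGAV), chr10:32900318-32958230 (ITGB1), chr17:47253827-47313743 (ITGB3), chr17:75721459-75757818 (ITGB4) and chr3:124761948-124901418 (ITGB5). RefSeq's promoter table matched 6 of the 9 genes, with 11 start sites, and did not list ITGA3, ITGB3 or ITGB4. The 250 bases before the start of ITGA2 (chr5:52989102-52989351, plus strand) and before the first start of ITGAV (chr2:186589806-186590055, plus strand) are shown because these alpha subunits fell most under STAT3 siRNA without virus. Capitals mark the letters GGGCGG or their reverse complement, known as the GC box.
ITGA2: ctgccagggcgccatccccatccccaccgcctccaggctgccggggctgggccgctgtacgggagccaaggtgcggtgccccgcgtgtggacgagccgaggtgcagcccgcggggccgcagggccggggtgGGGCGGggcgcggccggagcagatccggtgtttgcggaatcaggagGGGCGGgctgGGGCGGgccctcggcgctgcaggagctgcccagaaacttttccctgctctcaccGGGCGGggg
ITGAV: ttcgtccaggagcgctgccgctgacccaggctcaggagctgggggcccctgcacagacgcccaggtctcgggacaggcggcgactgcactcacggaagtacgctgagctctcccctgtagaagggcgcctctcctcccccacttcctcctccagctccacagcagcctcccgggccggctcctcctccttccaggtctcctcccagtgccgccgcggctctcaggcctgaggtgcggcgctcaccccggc
The ITGA2 window held 4 GC boxes and the ITGAV window held 0. Windows of the same length held at least 1 GC box in 42.6% of 35116 promoters. Neither the STAT motif TTCNNNGAA nor the AP-1 motif TGANTCA, both searched on both strands, was found in any of the 11 windows, and 6.57% of all promoters held each. These are matches of letters in a short window and say nothing of where a factor binds.

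Levels were compared between genes as TPM (transcripts-per-million), which corrects for length within a library. In NC the order of mean TPM was ITGB1 (131.8), ITGA3 (69.3), ITGA2 (21.1), ITGA5 (16.9), ITGAV (14.6), ITGB5 (5.58) and ITGB3 (2.005). The NC libraries of ITGA5, at 11.4 to 22.5 TPM, overlapped those of ITGA2 and of ITGAV, so its place is not set beyond the spread between libraries. ITGA2 was above ITGAV in all 4 NC libraries, by 1.33 to 1.55 times. ITGA2 (ENST00000296585) ranked 3 of these 7 in siHMGN5 as well, at 15.4 TPM, but 6 in siSTAT3, at 4.22 TPM. In the lentiviral experiment ITGA2 ranked 4 in NC_Vec, at 14.0 TPM, with libraries overlapping those of ITGAV at 13.4 TPM. It ranked 6 in siSTAT3_Vec, at 5.91 TPM, and 5 in siSTAT3_HMGN5, at 7.34 TPM. ITGB1 (ENST00000302278) led in every group but siSTAT3_Vec, where ITGA3 (ENST00000320031) had 103.5 TPM and ITGB1 94.4. ITGA6 (ENST00000442250) had 0 reads in 10 of the 17 libraries and at most 29.9, and ITGB4 (ENST00000200181) had 0 reads in 4 libraries and a median of 59.8, so no fold is given for either transcript. Other transcripts of the same genes were not summed, since the tables at hand do not pair transcripts with genes.

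A library held 19114033 to 19509422 estimated reads in the siRNA experiment and 22500086 to 23047081 in the lentiviral one. A count of 3 reads came to 0.154 to 0.157 CPM (counts-per-million) in the first and 0.130 to 0.133 in the second. The control libraries of the siRNA experiment fell into pairs. Over the 361 to 411 transcripts of a pair of libraries whose estimated reads were whole in every library and summed to at least 20, the mean chi-square of a library from NC 1 or 2 with one from NC 3 or 4 was 41.8 to 47.9, against 1.79 to 6.47 in the other 13 within-group pairs. The members moved with that split by very different amounts. ITGA5 (ENST00000293379) averaged 87.6 CPM in NC 1 and 2 and 172.6 in NC 3 and 4, ITGB3 (ENST00000559488) 18.9 and 8.54, and ITGB5 (ENST00000296181) 53.3 and 30.3. ITGA3 averaged 528 and 658 CPM, with no overlap between the pairs. ITGAV (ENST00000261023) averaged 173 and 171, and its pairs overlapped. ITGA2 averaged 299 and 279 and ITGB1 769 and 839, also with no overlap, but the pairs differed by only 1.07 and 1.09 times. ITGA3, ITGA5, ITGB3 and ITGB5 differed by more, and their results against NC are therefore also given against each pair. Transcripts under 300 bases took 1.15% to 1.26% of the reads in NC, 1.56% to 1.70% in siHMGN5 and 1.57% to 1.59% in siSTAT3. In the same order they took 38.8% to 41.0%, 44.2% to 45.4% and 43.6% to 43.8% of the summed TPM. A larger share leaves less TPM for all other transcripts, so TPM set between these groups also carries that difference. The part of this in the results was not tested. In these bulk samples fewer cells with a transcript and less of it per cell cannot be told apart.

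ITGA2, the alpha subunit of a collagen receptor, had 301, 297, 278 and 279 CPM in the 4 NC libraries, 239 and 231 in siHMGN5, and 68.3 and 65.2 in siSTAT3. The 3 groups did not overlap, and both siSTAT3 libraries lay far below the rest. In the lentiviral experiment it had 197, 217 and 203 CPM in NC_Vec, 88.8, 85.7 and 88.1 in siSTAT3_Vec, and 102, 111 and 113 in siSTAT3_HMGN5. Here too the groups did not overlap, and the HMGN5 libraries lay between the other two groups, nearer to siSTAT3_Vec.

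ITGAV, the alpha subunit of the vitronectin receptors, had 181, 165, 179.6 and 162 CPM in NC, 115 and 107 in siHMGN5, and 74.1 and 75.9 in siSTAT3. Both groups lay below all NC libraries. In the lentiviral experiment the values were 162, 179 and 172 CPM in NC_Vec, 197, 186 and 181 in siSTAT3_Vec, and 251, 269 and 265 in siSTAT3_HMGN5. There the siSTAT3_Vec libraries lay just above NC_Vec, and the HMGN5 libraries were the highest.

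ITGA3 is a laminin-binding subunit, and its transcript had the most reads of the listed alpha transcripts. It had 529.6, 526, 619 and 697 CPM in NC, 309.9 and 306 in siHMGN5, and 368 and 374 in siSTAT3. It had 1096, 982 and 1004 CPM in NC_Vec, 1002, 967 and 915 in siSTAT3_Vec, and 583, 596 and 578 in siSTAT3_HMGN5. The NC_Vec and siSTAT3_Vec libraries overlapped, and the HMGN5 libraries lay below both.

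ITGA5, the fibronectin-binding subunit, had 86.0, 89.1, 169.9 and 175 CPM in NC, 41.0 and 40.2 in siHMGN5, and 108 and 109 in siSTAT3. The siSTAT3 libraries fell between the NC pairs, and the siHMGN5 libraries lay below all NC libraries. It had 161, 147 and 148 CPM in NC_Vec, 139, 133 and 131 in siSTAT3_Vec, and 94.4, 90.8 and 94.3 in siSTAT3_HMGN5, with no overlap between these groups.

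ITGB1, the beta subunit shared by most of these receptors, had 761, 777, 892 and 786 CPM in NC, 432 and 418 in siHMGN5, and 687 and 669 in siSTAT3. It had 831, 802 and 789.9 CPM in NC_Vec, 616, 619 and 636 in siSTAT3_Vec, and 568, 596 and 603 in siSTAT3_HMGN5. The siHMGN5 libraries were the lowest of the siRNA experiment, and both STAT3 siRNA groups of the lentiviral experiment lay below NC_Vec.

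ITGB3 and ITGB5 both pair with ITGAV, and ITGB3 lay below ITGB5 in every library. ITGB3 had 17.6, 20.1, 8.59 and 8.50 CPM in NC, 5.58 and 5.66 in siHMGN5, 3.46 and 5.03 in siSTAT3, 18.5, 18.5 and 20.8 in NC_Vec, 12.7, 7.02 and 8.47 in siSTAT3_Vec, and 4.02, 5.88 and 4.51 in siSTAT3_HMGN5. ITGB5 had 53.3, 53.3, 28.2 and 32.4 CPM in NC, 52.5 and 50.6 in siHMGN5, and 39.6 and 45.2 in siSTAT3. It had 98.0, 81.6 and 101 CPM in NC_Vec, 84.6, 74.2 and 74.0 in siSTAT3_Vec, and 54.2, 49.0 and 44.9 in siSTAT3_HMGN5. For ITGB5 the NC libraries enclosed both siSTAT3 libraries, and the HMGN5 libraries lay below all others of their experiment.

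ITGA6 reached at most 1.59 CPM, in siSTAT3 replicate 1. ITGB4, the partner of ITGA6, was at 0 CPM in both siSTAT3 libraries and from 0 to 4.47 in NC, and stood at 2.62 and 7.77 CPM in siHMGN5. It ranged from 6.51 to 24.6 CPM in NC_Vec, from 3.18 to 5.83 in siSTAT3_Vec and from 0 to 2.28 in siSTAT3_HMGN5.

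The comparisons below were fitted over all transcripts of an experiment with edgeR's quasi-likelihood test, with Benjamini-Hochberg adjustment and a threshold of 0.05. A transcript is said to rise or fall where it passed that threshold. Since the estimated reads over these groups took part in choosing the transcripts, the folds and adjusted p describe where each stood in that fit and support nothing further. Changes are log2 fold changes ± SE. siSTAT3 and siHMGN5 were set against the same NC libraries, and the lentiviral comparisons share groups as well, so their changes are not independent of each other.

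In cells given STAT3 siRNA without virus, the collagen-binding ITGA2 had the largest fall of the 7 transcripts with a fold. ITGA2 fell by 2.11 ± 0.07 (adjusted p = 0.000539), 4.32-fold. ITGAV fell by 1.20 ± 0.08 (adjusted p = 0.00192), 2.29-fold, and ITGA3 by 0.68 ± 0.13 (adjusted p = 0.038). These were 3 of the 9 members, with 0 rising, against 2.92% of the 74346 tested transcripts falling and 1.36% rising. Of the 15813 transcripts averaging 10 CPM or more, 9.87% fell and 4.25% rose. The change was -0.25 ± 0.08 (adjusted p = 0.184) for ITGB1 and -1.69 ± 0.46 (adjusted p = 0.113) for ITGB3, whose libraries did not overlap NC, and -0.26 ± 0.33 (adjusted p = 0.801) for ITGA5 and 0.02 ± 0.29 (adjusted p = 0.991) for ITGB5, whose libraries did. The median over the 7 transcripts with a fold was -0.68, against 0 over all tested. ITGA3's call ended without NC replicate 3 or either siSTAT3 library, with adjusted p of 0.0770 to 0.230. Against NC 1 and 2 alone ITGA5 was higher in siSTAT3 by 0.31 (adjusted p = 0.0352) and against NC 3 and 4 alone it was lower, at -0.69 (adjusted p = 0.00595). In the same order ITGB3 stood at -2.15 (adjusted p = 0.0191) and -1.03 (adjusted p = 0.0871), and ITGB5 at -0.33 (adjusted p = 0.108) and 0.47 (adjusted p = 0.0812). ITGA3 stood at -0.51 (adjusted p = 0.00631) and -0.85 (adjusted p = 0.0082) against these pairs.

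In siHMGN5 the shared subunit ITGB1 and the alpha subunits ITGA3 and ITGAV fell against NC. ITGA3 fell by 0.94 ± 0.13 (adjusted p = 0.0167), ITGB1 by 0.92 ± 0.08 (adjusted p = 0.00517) and ITGAV by 0.63 ± 0.08 (adjusted p = 0.0134), or 1.92-fold, 1.89-fold and 1.55-fold. Of the 9 members 3 fell and 0 rose, against 2.45% of tested transcripts falling and 0.943% rising, or 8.76% and 2.97% among those averaging 10 CPM or more. ITGA2 stood at -0.30 ± 0.07 (adjusted p = 0.0749). ITGA5 stood at -1.68 ± 0.36 (adjusted p = 0.0634), and ITGB3 at -1.28 ± 0.45 (adjusted p = 0.221). ITGB5 stood at 0.30 ± 0.28 (adjusted p = 0.695). The median over the 7 was -0.92, against -0.00173 over all. Without either siHMGN5 library the calls of ITGA3 and ITGAV ended, with adjusted p of 0.0818 to 0.115, and ITGB1's ended without siHMGN5 replicate 2 (adjusted p = 0.0511). Against NC 1 and 2 or NC 3 and 4 alone, ITGA5 stood at -1.11 (adjusted p = 0.00523) and -2.09 (adjusted p = 0.00273), ITGA2 at -0.35 (adjusted p = 0.0299) and -0.25 (adjusted p = 0.0469), ITGB3 at -1.74 (adjusted p = 0.0335) and -0.60 (adjusted p = 0.243), and ITGB5 at -0.05 (adjusted p = 0.870) and 0.77 (adjusted p = 0.0271). In the same order ITGA3 stood at -0.78 (adjusted p = 0.00496) and -1.09 (adjusted p = 0.00566).

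Set directly against each other, the 2 siRNA groups differed most in ITGA2, which was 3.52-fold lower in siSTAT3, at -1.81 ± 0.08 (adjusted p = 0.00096). ITGAV was lower in siSTAT3 too, at -0.57 ± 0.09 (adjusted p = 0.0239), and ITGB1 was higher, at 0.67 ± 0.09 (adjusted p = 0.0152). Of the 9 members 2 were lower and 1 was higher, against 1.87% and 2.02% of all tested, or 5.92% and 6.86% among those averaging 10 CPM or more. ITGA5 stood at 1.42 ± 0.39 (adjusted p = 0.124) and ITGA3 at 0.27 ± 0.14 (adjusted p = 0.427). With a change of 1.41 to 1.42, ITGA5 passed the threshold when the 2 groups were fitted without NC (adjusted p = 0.0219) and with DESeq2 (adjusted p = 0.00384), and its adjusted p was 0.124 to 0.411 in the fits where it did not. The calls of ITGAV and ITGB1 ended without any 1 of the 4 libraries, with adjusted p of 0.0883 to 0.157 for ITGAV and 0.0842 to 0.1003 for ITGB1. ITGA2's held each time.

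In cells with the control vector, ITGA2 also fell in the libraries given STAT3 siRNA, and so did ITGB1. ITGA2 fell by 1.23 ± 0.05 (adjusted p = 1.65e-05), 2.35-fold, and ITGB1 by 0.37 ± 0.04 (adjusted p = 0.000431), 1.3-fold. ITGB3 fell by 1.04 ± 0.24 (adjusted p = 0.0245) and ITGA5 by 0.18 ± 0.05 (adjusted p = 0.0497). Of the 8 members tested, without ITGA6, 4 fell and 0 rose, against 7.07% of 69768 tested transcripts falling and 7.2% rising. Among those averaging 10 CPM or more, 18.4% fell and 20.1% rose. ITGAV stood at 0.14 ± 0.05 (adjusted p = 0.133), ITGA3 at -0.10 ± 0.05 (adjusted p = 0.292) and ITGB5 at -0.27 ± 0.11 (adjusted p = 0.151). ITGA5's call ended without any 1 of the 6 libraries, with adjusted p of 0.0579 to 0.163. ITGB3's ended without any 1 library other than siSTAT3_Vec replicate 1, with adjusted p of 0.0593 to 0.0899. The fits without 1 library called 6994 to 8457 of all transcripts, against 9953 with all libraries.

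In cells given STAT3 siRNA, the libraries labelled with lentiviral HMGN5 had more ITGAV and ITGA2 and less ITGA3, ITGA5 and ITGB5 than those with the control vector. ITGA3 fell by 0.72 ± 0.05 (adjusted p = 0.000974), 1.64-fold, ITGA5 by 0.53 ± 0.05 (adjusted p = 0.00238) and ITGB5 by 0.65 ± 0.11 (adjusted p = 0.0184). ITGAV rose by 0.47 ± 0.05 (adjusted p = 0.0042), 1.39-fold, and ITGA2 by 0.31 ± 0.05 (adjusted p = 0.0211), 1.24-fold. Of the 8 members tested, without ITGA6, 2 rose and 3 fell, against 1.52% and 2.25% of all tested. Among those averaging 10 CPM or more, 5.62% rose and 6.83% fell. ITGB1 stood at -0.08 ± 0.04 (adjusted p = 0.319) and ITGB3 at -0.97 ± 0.24 (adjusted p = 0.0789). The calls of ITGA2 and ITGB5 ended without any 1 library other than siSTAT3_HMGN5 replicate 1, with adjusted p of 0.0720 to 0.0917 and 0.0536 to 0.0709. Fits without 1 library called 1190 to 1668 of all transcripts here, against 2631 with all libraries.

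Against NC_Vec, the siSTAT3_HMGN5 libraries differed in 7 of the 8 members tested, all but ITGB4 (adjusted p = 0.0631). ITGA6 did not pass the filter. ITGAV rose by 0.61 ± 0.05 (adjusted p = 0.000157), 1.53-fold, and 6 fell. ITGB3 fell by 2.003 ± 0.24 (adjusted p = 0.000887), 4.01-fold. ITGA2 fell by 0.92 ± 0.05 (adjusted p = 2.53e-05), 1.89-fold, so it stayed below the control in the libraries labelled with HMGN5. ITGB5, ITGA3, ITGA5 and ITGB1 fell 1.9-fold, 1.75-fold, 1.63-fold and 1.37-fold. In this comparison 10.9% of all tested transcripts rose and 11.4% fell, or 26.9% and 24.4% among those averaging 10 CPM or more.

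**Figure D1:**
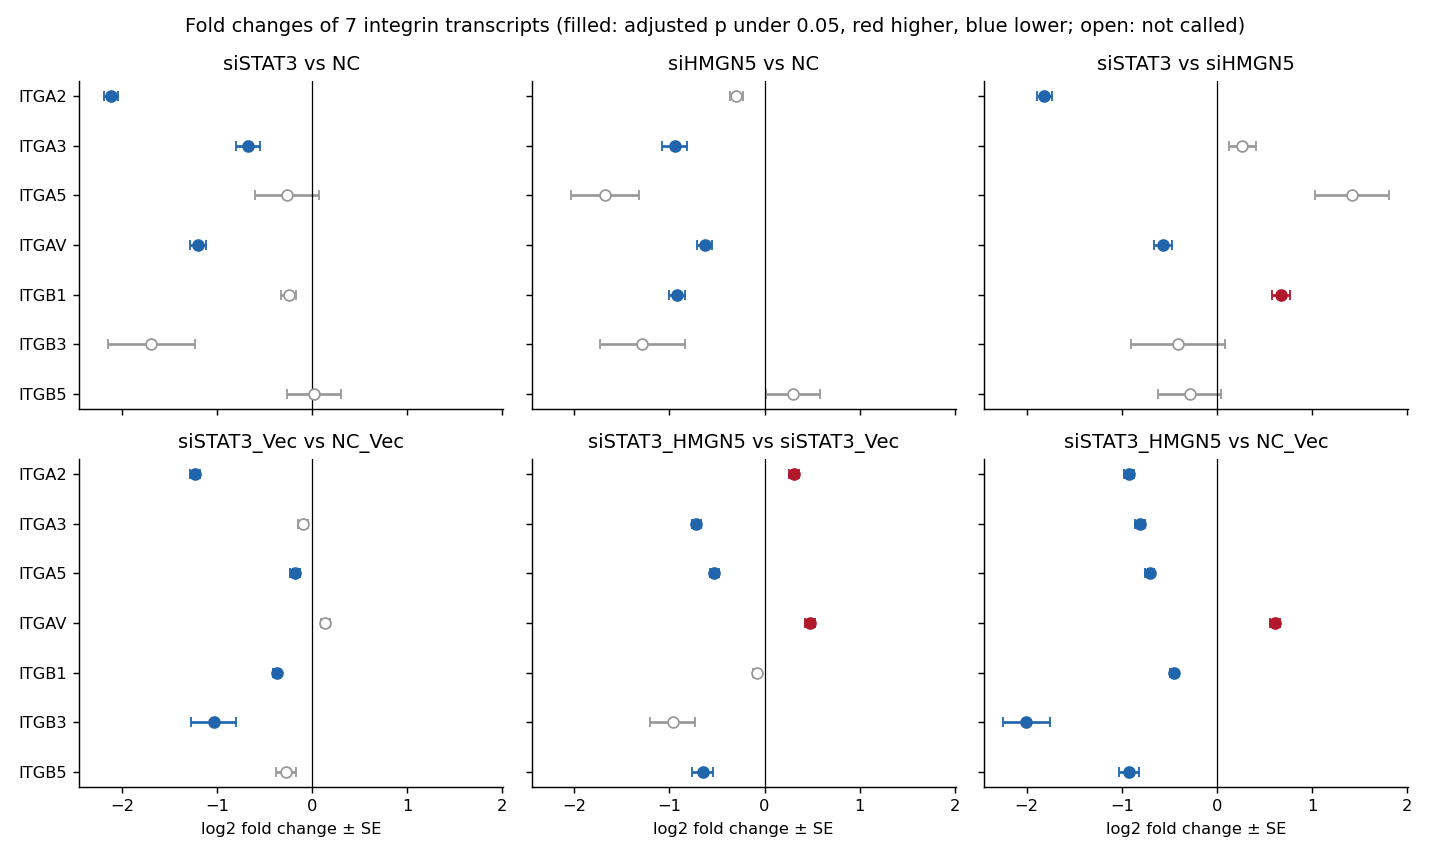
Log2 fold change of 7 integrin transcripts with 1 SE in each comparison, from edgeR's fit over all transcripts of the experiment. ITGA2 is at -2.11 in siSTAT3 vs NC and -1.23 in siSTAT3_Vec vs NC_Vec, where ITGAV is at -1.20 and 0.14.

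The effect of STAT3 siRNA was compared between the 2 experiments in 1 fit of all 17 libraries. It was lower without virus than with the control vector for ITGAV, by 1.36 ± 0.09 (adjusted p = 2.59e-06), for ITGA2, by 0.90 ± 0.08 (adjusted p = 2.23e-05), and for ITGA3, by 0.60 ± 0.13 (adjusted p = 0.0187). These were 3 of the 9 members with 0 in the other direction, against 3.28% of 86839 tested transcripts more negative and 2.23% more positive, or 12.4% and 7.82% among those averaging 10 CPM or more. ITGA3's call ended without either siSTAT3 library, with adjusted p of 0.0707 to 0.0754. ITGB1 stood at 0.11 ± 0.08 (adjusted p = 0.601), ITGB3 at -0.67 ± 0.49 (adjusted p = 0.556), ITGB5 at 0.27 ± 0.30 (adjusted p = 0.765) and ITGA5 at -0.11 ± 0.34 (adjusted p = 1). The NC pairs gave opposite directions for ITGA5, at 0.47 (adjusted p = 0.00172) with NC 1 and 2 alone and -0.52 (adjusted p = 0.000538) with NC 3 and 4 alone. In the same order ITGB3 stood at -1.13 (adjusted p = 0.105) and -0.000398 (adjusted p = 0.9999), and ITGB5 at -0.07 (adjusted p = 0.964) and 0.73 (adjusted p = 0.0145). Infection and experiment changed together and cannot be told apart.

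Most of these alpha subunits share ITGB1 as their partner, and their proportions within a library were described, from TPM and with no test. ITGA2 was 15.0% to 19.8% of the summed TPM of the 5 alpha transcripts in NC, 25.4% in siHMGN5 and 6.98% to 7.28% in siSTAT3. It was 7.98% to 9.40% in NC_Vec, 4.12% to 4.42% in siSTAT3_Vec and 6.81% to 7.40% in siSTAT3_HMGN5. ITGAV was 10.3% to 10.6% in siSTAT3_Vec and 19.4% to 20.3% in siSTAT3_HMGN5, while ITGA3 was 73.4% to 74.2% and 61.3% to 62.4%. The ratio of ITGA2 to ITGB1 TPM was 0.139 to 0.177 in NC, 0.247 in siHMGN5 and 0.0436 to 0.0445 in siSTAT3. The ITGA2 share was thus below that of the matching control in siSTAT3 and in siSTAT3_Vec. In siHMGN5 the share was above that in NC although ITGA2 itself was at a lower mean TPM (15.4 against 21.1), since the means of ITGA3 (32.05 against 69.3 TPM) and ITGA5 (4.71 against 16.9 TPM) were lower by more.

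**Figure D2:**
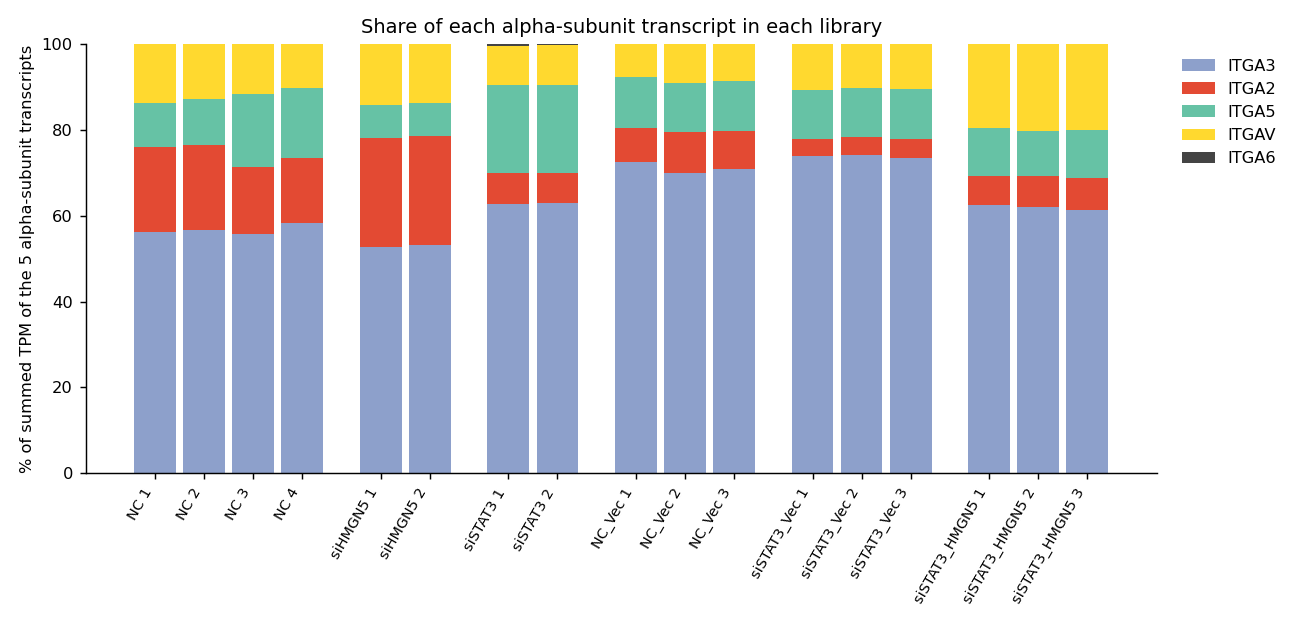
Share of each alpha subunit transcript in the summed alpha TPM of a library, in percent (axis from 0). ITGA2 takes 25.4% in siHMGN5 and 6.98% to 7.28% in siSTAT3, and ITGA3 is the largest share in all 17 libraries.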

How the data were processed

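Poly(A) RNA of 17 libraries in 6 groups was used, with groups and replicate numbers from the sample titles; 2 H3K27ac CUT&Tag samples were not analysed here. The authors' deposited tables give, per the file headers, a length and an effective length in bases, and for each transcript its TPM and its estimated count. The submitters' processing notes list the builds GRCh38 and hg38 and the tools CASAVA, HOMER, Bowtie2 and Salmon 1.4.0. Options and strand use are not given in the sources used here. Salmon divides reads among transcripts: the estimates were whole (within 0.0015, above 0) in 1 library for ITGB1, in 1 for ITGB3 and in none for the others, so members share reads with other transcripts, and the antisense gene ITGA2-AS1 overlaps the start of ITGA2.

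The members, lists and tests were chosen with earlier results of these data known; all 9 members are named. The estimated counts were rounded and fitted per experiment with edgeR 4.0.16 (TMM, filterByExpr, glmQLFit, glmQLFTest; R 4.3.3), with Benjamini-Hochberg adjustment over all transcripts. SE is the log2 fold change over the square root of the F statistic. All 9 members passed the filter in the siRNA experiment and in the fit of 17 libraries, and 8, without ITGA6, in the lentiviral one. Alternatives were DESeq2 1.42.0, upper-quartile scaling, limma-voom (limma 3.58.1), no filter, a replicate block, the compared groups alone, either NC pair alone and leaving out each library. Sums per gene, the planned pathway lists, the cell type markers and the levels of the 2 targeted genes were not run, since the tables at hand do not pair transcripts with genes. The labels do not say that replicates are separate cultures, so p-values measure only spread among these libraries, possibly technical. Promoter sequences are RefSeq's, GRCh38.p14.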

Additional observations from a re-analysis of the deposited data

Results flagged for a closer look

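Of the 9 integrin transcripts, 3 had an effect of STAT3 siRNA that differed between the siRNA and the lentiviral experiment. The difference was tested directly (edgeR, 1 fit of 17 libraries). All 3 were more negative, against 3.28% of 86839 tested transcripts more negative and 2.23% more positive. Among those averaging 10 CPM or more, the shares were 12.4% and 7.82%. The difference, siRNA experiment minus lentiviral experiment, was -1.36 for ITGAV, whose effect was -1.20 in the first and 0.14 in the second. It was -0.90 for ITGA2, which fell in both, and -0.60 for ITGA3, whose call ended without either siSTAT3 library.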

How the results depend on the processing

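Over 49 member results and 651 alternatives, 567 kept direction and side of the threshold. Of the rest, 45 lost their call, 23 gained one in the same direction and 16 changed direction. Of the 16, counted by direction alone, some also passed the threshold, such as ITGA5 in siSTAT3 vs NC with NC 1 and 2 alone. The 28 called results changed direction under 0 of their 363 alternatives. The falls of ITGA2 and ITGAV in siSTAT3 vs NC, of ITGA2 and ITGB1 in siSTAT3_Vec vs NC_Vec, and the ITGA2 and ITGAV differences between experiments held under all alternatives run. The number of members called in siSTAT3 vs NC was 3, but 6 with DESeq2 and with NC 1 and 2 alone, 4 with the replicate block and with NC 3 and 4 alone, and 2 with the compared groups alone. In siHMGN5 vs NC it was 3, but 6 with DESeq2 and with either NC pair alone. In siSTAT3 vs siHMGN5 it was 3, but 5 with DESeq2 and with the replicate block and 4 with the compared groups alone; ITGA5 was called under these 3 (adjusted p = 0.0152 with the block). Between experiments it was 3, but 5 with NC 3 and 4, and 4 with NC 1 and 2 and with the replicate block. With all libraries kept it was 3 to 5 for siSTAT3_Vec vs NC_Vec and 4 to 6 for siSTAT3_HMGN5 vs siSTAT3_Vec. For siSTAT3_HMGN5 vs NC_Vec it was 7 to 8. Of all transcripts 7516 to 16965, 1156 to 8078 and 12177 to 22871 were called. Leaving out 1 library gave 2 to 3 members for siSTAT3 vs NC, 0 to 3 for siHMGN5 vs NC, 1 for siSTAT3 vs siHMGN5, 2 to 3 for siSTAT3_Vec vs NC_Vec (4 with all libraries), 3 to 5 for siSTAT3_HMGN5 vs siSTAT3_Vec, 7 to 8 for siSTAT3_HMGN5 vs NC_Vec and 2 to 3 between experiments. The number called among all transcripts moved too, and fell in siRNA-experiment fits that left 1 library in a group. For siSTAT3 vs NC it was 3181, but 10650 with DESeq2 and 4627 and 6259 with the NC pairs in order. It was 1622 with the block and 2195 with the compared groups alone. For siHMGN5 vs NC it was 2521, but 9904 with DESeq2 and 3429 and 6249 with these pairs. For siSTAT3 vs siHMGN5 it was 2893, but 10178 with DESeq2, 2418 with the block and 3409 with the compared groups alone. The cause was not tested.

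Changes of direction were in ITGA5 and ITGB5, neither of them called before. In siSTAT3 vs NC, ITGB5 stood at -0.00279 with no filter, -0.33 with the replicate block, -0.14 to 0.16 when 1 library was left out and -0.33 with NC 1 and 2, and ITGA5 at 0.31 with the replicate block and 0.31 with NC 1 and 2. In siHMGN5 vs NC, ITGB5 stood at -0.0467 with the replicate block and -0.0459 with NC 1 and 2. Between experiments ITGA5 stood at 0.47 with the replicate block, -0.27 to 0.0633 when 1 library was left out (above 0 without NC replicate 3 or 4) and 0.47 with NC 1 and 2, and ITGB5 at -0.0740 with the block and -0.0735 with NC 1 and 2. In the siRNA block fit NC 3 and 4 are alone in their blocks and drop out. Deviations of same-numbered libraries correlated at 0.0016 to 0.0214 over 6 pairs and -0.0259 to 0.0156 over 9 pairs, so the numbers were not taken to pair the samples; a library correlated best with its own number in 10 of 12 and 6 of 18 cases. Sums per gene were not run.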

Other observations

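Among 15848 transcripts averaging 10 CPM or more, the 2 whose log2(CPM + 1) followed ITGA2 most closely over the 17 libraries were ENST00000345122 (Pearson r 0.973, Spearman rho 0.944) and ENST00000526600 (r 0.969, rho 0.917). Their gene names are not paired with these IDs in the tables at hand. Of the other integrin transcripts ITGB3 had the highest r with ITGA2, 0.573, and ITGB1 had 0.235, ITGAV 0.134, ITGA3 -0.014 and ITGA5 -0.109. The libraries share 6 groups, so these values describe the pattern over groups.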
